A study of Mus musculus with 27 samples.

Results

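The 9 genes described here encode interferon-inducible GTPases of the mouse, and they are the guanylate-binding proteins Gbp2, Gbp2b, Gbp3, Gbp5 and Gbp7 and the immunity-related GTPases Irgm1, Irgm2, Igtp and Iigp1. They were found by symbol among the 55401 genes of a table of read counts from 27 RNA libraries of 4T1 cells. The set was drawn up with its levels and calls in these libraries in view. Every level, fold change and call of a member below is therefore a description, and members carry no p-value. A member said to be called passed an adjusted p below 0.05, and no conclusion is drawn from that. 4T1 is a mouse mammary carcinoma cell line that spreads to distant organs when it is transplanted. The study asked how gene expression differs when genes of mitochondrial division are knocked out or when cells are given leflunomide, an inhibitor of pyrimidine synthesis.

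The knockout libraries came from clones made with CRISPR-Cas9, with 3 libraries each. Clones gs1B8 and gs2_B4 are Drp1 KO, where Drp1 is the mitochondrial division GTPase encoded by Dnm1l. Clones gs1_B11 and gs2_F6 are Fis1 KO, where Fis1 is an adaptor of the outer mitochondrial membrane. Clones gs1_B4 and gs1_C8 are Mff KO, where Mff is a receptor that recruits Drp1. Their reference was parental 4T1 cells with a WT genotype (3 libraries). The drug libraries came from WT 4T1 cells given leflunomide (labelled Leflu, 3 libraries) or the vehicle DMSO (3 libraries), each for 3 days. Each knockout line is a single clone, so a difference between a clone and the parental cells cannot be told apart from variation between clones, and the codes could not be matched to the labels' clone numbers. All 6 clones were set against the same 3 parental libraries. Libraries are numbered here by the serial number of their column, and nothing in the labels says that libraries of a group were separate cultures.

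Guanylate-binding proteins are large GTPases of the dynamin superfamily, to which Drp1 also belongs. Interferons induce them, and they assemble on the vacuoles of intracellular parasites and on bacteria, where they help to break the vacuole and to start the inflammasome response. Immunity-related GTPases act on the same vacuoles: Irgm1, Irgm2 and Igtp are regulators that sit on the membranes of the cell itself, and Iigp1 is an effector that coats the parasite vacuole. Transcription of both families is driven by gamma-activated sites and by interferon-stimulated response elements, the second of which bind factors of the IRF family.

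Library totals ran from 18492020 to 31295937 counts. One ribosomal RNA gene, CT010467.1, took 23.2% of the counts of DMSO library 3, which is given apart wherever a drug result rests on it. Dnm1l averaged 68.4 CPM in gs1B8 and 41.1 CPM in gs2_B4, against 217.3 CPM in parental cells (CPM, counts scaled by TMM-adjusted library totals to the same library size). Fis1 averaged 20.7 CPM in gs1_B11 and 16.99 CPM in gs2_F6, against 46.8 CPM in parental cells. Mff averaged 46.7 CPM in gs1_B4 and 42.1 CPM in gs1_C8, against 84.1 CPM in parental cells, so each targeted transcript was lower in its own clones. The 6 epithelial markers summed to between 1830 and 3510 CPM in every library. Of 13 leukocyte markers, 8 to 10 had 0 counts in every library of a group, Cd3e, Cd4, Cd8a, Adgre1, Ncr1 and Nkg7 among them. Their sum was 2.59 to 4.02 CPM in gs1_C8, against 3.98 to 4.71 CPM in parental cells.

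In the GRCm38 build the guanylate-binding members form 1 cluster on chromosome 3, in the order Gbp5 (142493978 to 142522344), Gbp7 (142530342 to 142550149), Gbp3 (142560026 to 142573209), Gbp2b (142594847 to 142619179) and Gbp2 (142620602 to 142638008), with every gene on the plus strand. On chromosome 11, Irgm1 lies on the minus strand (48861968 to 48871683), and Igtp (58199556 to 58207591) and Irgm2 (58199618 to 58222782) overlap on the plus strand. RefSeq promoter windows of GRCm38.p6, from 250 bases before to 50 bases after the annotated start, were at hand for 8 of the 9 members. The Irgm2 window (58214727 to 58215026) lies inside the gene as counted, which begins at 58199618, close to the Igtp start. The Gbp5 window (142496684 to 142496983) also lies inside its counted gene. Transcripts of these genes that start elsewhere are not covered by the windows. Those 4 are shown in which the transcripts followed different patterns across the clones: Gbp2 and Gbp2b, which were above parental levels in every clone, and Irgm2 and Igtp, which were not. Capitals mark matches on either strand to the response element (GAAA, any NN, then GAAA, which reads as TTTC, NN and TTTC on the other strand) and to the gamma-activated site (TTCNNNGAA, the same on both strands). The windows are chr3:142620413-142620712, chr3:142594597-142594896, chr11:58214727-58215026 and chr11:58199306-58199605, all on the plus strand and written 5′ to 3′.
Gbp2: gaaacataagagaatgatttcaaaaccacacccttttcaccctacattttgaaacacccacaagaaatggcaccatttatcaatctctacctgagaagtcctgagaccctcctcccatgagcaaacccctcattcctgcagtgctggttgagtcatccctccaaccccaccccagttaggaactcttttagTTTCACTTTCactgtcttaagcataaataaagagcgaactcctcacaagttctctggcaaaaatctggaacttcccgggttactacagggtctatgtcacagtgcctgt
Gbp2b: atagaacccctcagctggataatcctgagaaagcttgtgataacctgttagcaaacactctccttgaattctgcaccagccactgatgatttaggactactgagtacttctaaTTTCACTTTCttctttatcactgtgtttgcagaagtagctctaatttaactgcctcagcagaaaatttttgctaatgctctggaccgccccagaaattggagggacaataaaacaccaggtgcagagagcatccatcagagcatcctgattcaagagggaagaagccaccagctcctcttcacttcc
Irgm2: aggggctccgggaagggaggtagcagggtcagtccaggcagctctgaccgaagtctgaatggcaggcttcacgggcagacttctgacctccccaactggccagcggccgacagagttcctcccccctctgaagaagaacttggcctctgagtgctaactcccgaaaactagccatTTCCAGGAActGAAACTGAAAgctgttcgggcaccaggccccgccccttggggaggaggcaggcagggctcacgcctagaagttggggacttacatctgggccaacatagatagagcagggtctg
Igtp: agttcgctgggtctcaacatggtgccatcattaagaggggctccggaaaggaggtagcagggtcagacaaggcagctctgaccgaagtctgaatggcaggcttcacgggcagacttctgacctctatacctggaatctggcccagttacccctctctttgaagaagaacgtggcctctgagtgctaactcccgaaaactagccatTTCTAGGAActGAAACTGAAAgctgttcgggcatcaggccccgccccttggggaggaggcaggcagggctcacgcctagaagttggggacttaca

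The Gbp2 and Gbp2b windows each held 1 response element, at -59 to -50 and at -137 to -128 from the start, and no gamma-activated site. The Irgm2 and Igtp windows each held both motifs, the gamma-activated site at -75 to -67 and -45 to -37 and the response element at -64 to -55 and -34 to -25. These last windows are near copies: they share an identical run of 61 bases, and with an offset of 30 bases 184 of 270 bases (68.1%) were the same. All 8 members with a window held the response element in at least 1 window, against 3.44% of the 32851 promoters of the table. The gamma-activated site was present in 4 of the 8, Gbp5, Gbp7, Irgm2 and Igtp, against 8.30% of all promoters, and 0.454% of all promoters held both motifs. Gbp3 has a second window with neither motif. A match of letters is a description of the sequence and not a binding site. Irgm1 and Gbp3, whose motif matches were response elements alone as in Gbp2, were not above the parental range in every clone. Gbp7 held gamma-activated sites and was called higher in both Drp1 clones. Whether the motifs relate to the levels was not tested.

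**Figure D1:**
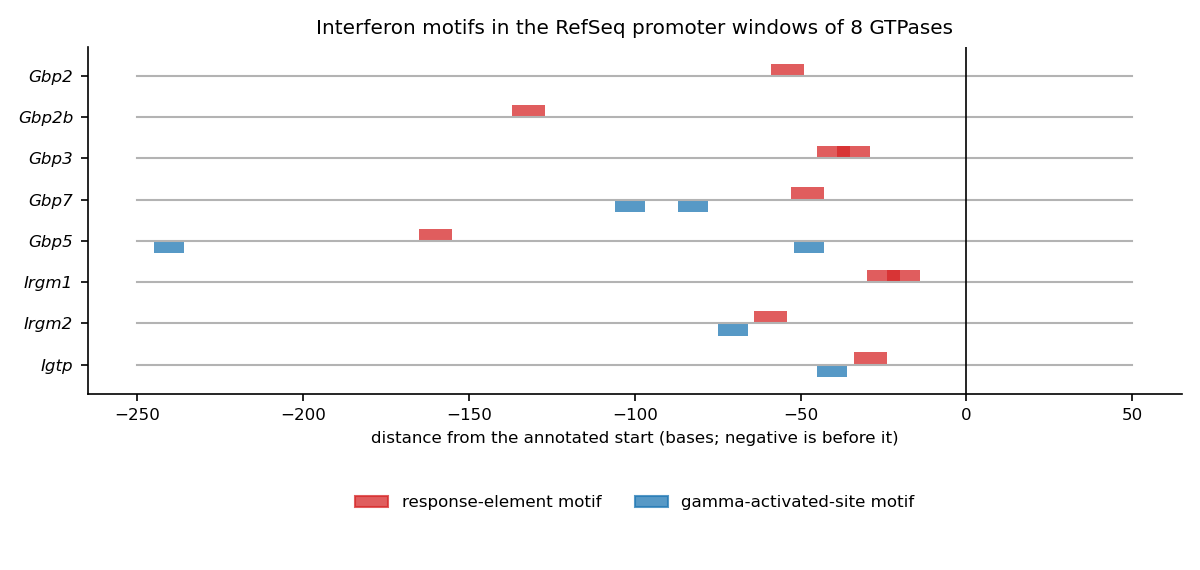
Position of each motif match in the promoter windows of 8 members, in bases from the annotated start (x axis; negative is before it), with the response element drawn above each line and the gamma-activated site below it. Each of the 8 has a response element before its start, and Gbp5, Gbp7, Irgm2 and Igtp also have 1 or 2 gamma-activated sites.

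Reads that match more than 1 of these genes were shared out by the authors' RSEM estimates, which shows as counts with a fraction. Irgm2 and Igtp both had fractional counts in 23 of 27 libraries, and in 23 of those 23 their sum was whole to within 0.015 counts. The exons of both genes overlap by 162 bases, which is 8.01% of the exonic bases of Igtp and 4.39% of those of Irgm2. Gbp2 and Gbp2b were both fractional in 12 libraries and their sum was whole in 12 of 12, and for Gbp3 and Gbp7 this held in 14 of 24. Of the 50-base stretches of the Gbp7 transcripts, 10.5% also occur in Gm43802 and 2.24% in Gbp3. How reads were split within these pairs is therefore uncertain, and the summed level of each pair is given beside the single levels. Irgm1 and Gbp5 had whole counts in all 27 libraries.

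Gbp2, which coats parasite vacuoles and bacteria, was higher than in parental cells in all 6 clones. Its levels were 8.22, 8.93 and 7.95 CPM in gs1B8, 10.1, 15.7 and 10.6 CPM in gs2_B4, 4.87, 5.01 and 4.48 CPM in gs1_B11, 7.04, 5.96 and 5.42 CPM in gs2_F6, 4.79, 5.33 and 4.83 CPM in gs1_B4 and 48.0, 29.5 and 26.8 CPM in gs1_C8, against 3.22, 2.68 and 2.26 CPM in parental cells. Each of the 18 clone libraries lay above the highest parental library. The log2 fold changes were 1.61 ± 0.23 in gs1B8, 2.14 ± 0.22 in gs2_B4, 0.82 ± 0.25 in gs1_B11, 1.16 ± 0.24 in gs2_F6, 0.85 ± 0.24 in gs1_B4 and 3.67 ± 0.21 in gs1_C8 (edgeR, ± SE, n = 3 each). In the order of group means gs1_C8 (34.7 CPM) came first, then gs2_B4 (12.1 CPM), gs1B8 (8.37 CPM), gs2_F6 (6.14 CPM), gs1_B4 (4.98 CPM), gs1_B11 (4.79 CPM), Leflu (2.81 CPM), parental cells (2.72 CPM) and DMSO (2.51 CPM). The ranges of gs1_B4 and gs1_B11 overlapped, as did those of Leflu with parental cells and of parental cells with DMSO, and the other 5 neighbouring pairs were apart.

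Gbp2b, the neighbour of Gbp2 in the cluster and in older naming mouse Gbp1, had the same order of groups. It stood at 7.98, 7.38 and 5.69 CPM in gs1B8, 9.16, 13.2 and 8.92 CPM in gs2_B4, 4.00, 3.94 and 3.25 CPM in gs1_B11, 6.05, 4.86 and 4.999 CPM in gs2_F6, 4.51, 4.61 and 3.77 CPM in gs1_B4 and 51.5, 30.6 and 28.2 CPM in gs1_C8, against 2.56, 2.41 and 1.95 CPM in parental cells. Again no clone library overlapped the parental range. Fitted log2 fold changes were 1.59 ± 0.25 in gs1B8, 2.16 ± 0.24 in gs2_B4, 0.70 ± 0.27 in gs1_B11, 1.18 ± 0.26 in gs2_F6, 0.87 ± 0.26 in gs1_B4 and 3.98 ± 0.23 in gs1_C8 (± SE). The gs1_B11 value is the least certain: its call was lost when parental library 1, 2 or 3 or gs1_B11 library 1 or 2 was left out, at log2 fold changes of 0.79, 0.75, 0.60, 0.67 and 0.66. Gbp2 and Gbp2b together averaged 15.4 ± 1.5 CPM in gs1B8, 22.5 ± 5.5 CPM in gs2_B4, 8.52 ± 0.69 CPM in gs1_B11, 11.4 ± 1.4 CPM in gs2_F6, 9.28 ± 0.67 CPM in gs1_B4 and 71.5 ± 24.4 CPM in gs1_C8, against 5.03 ± 0.78 CPM in parental cells (SD, n = 3 each).

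**Figure D2:**
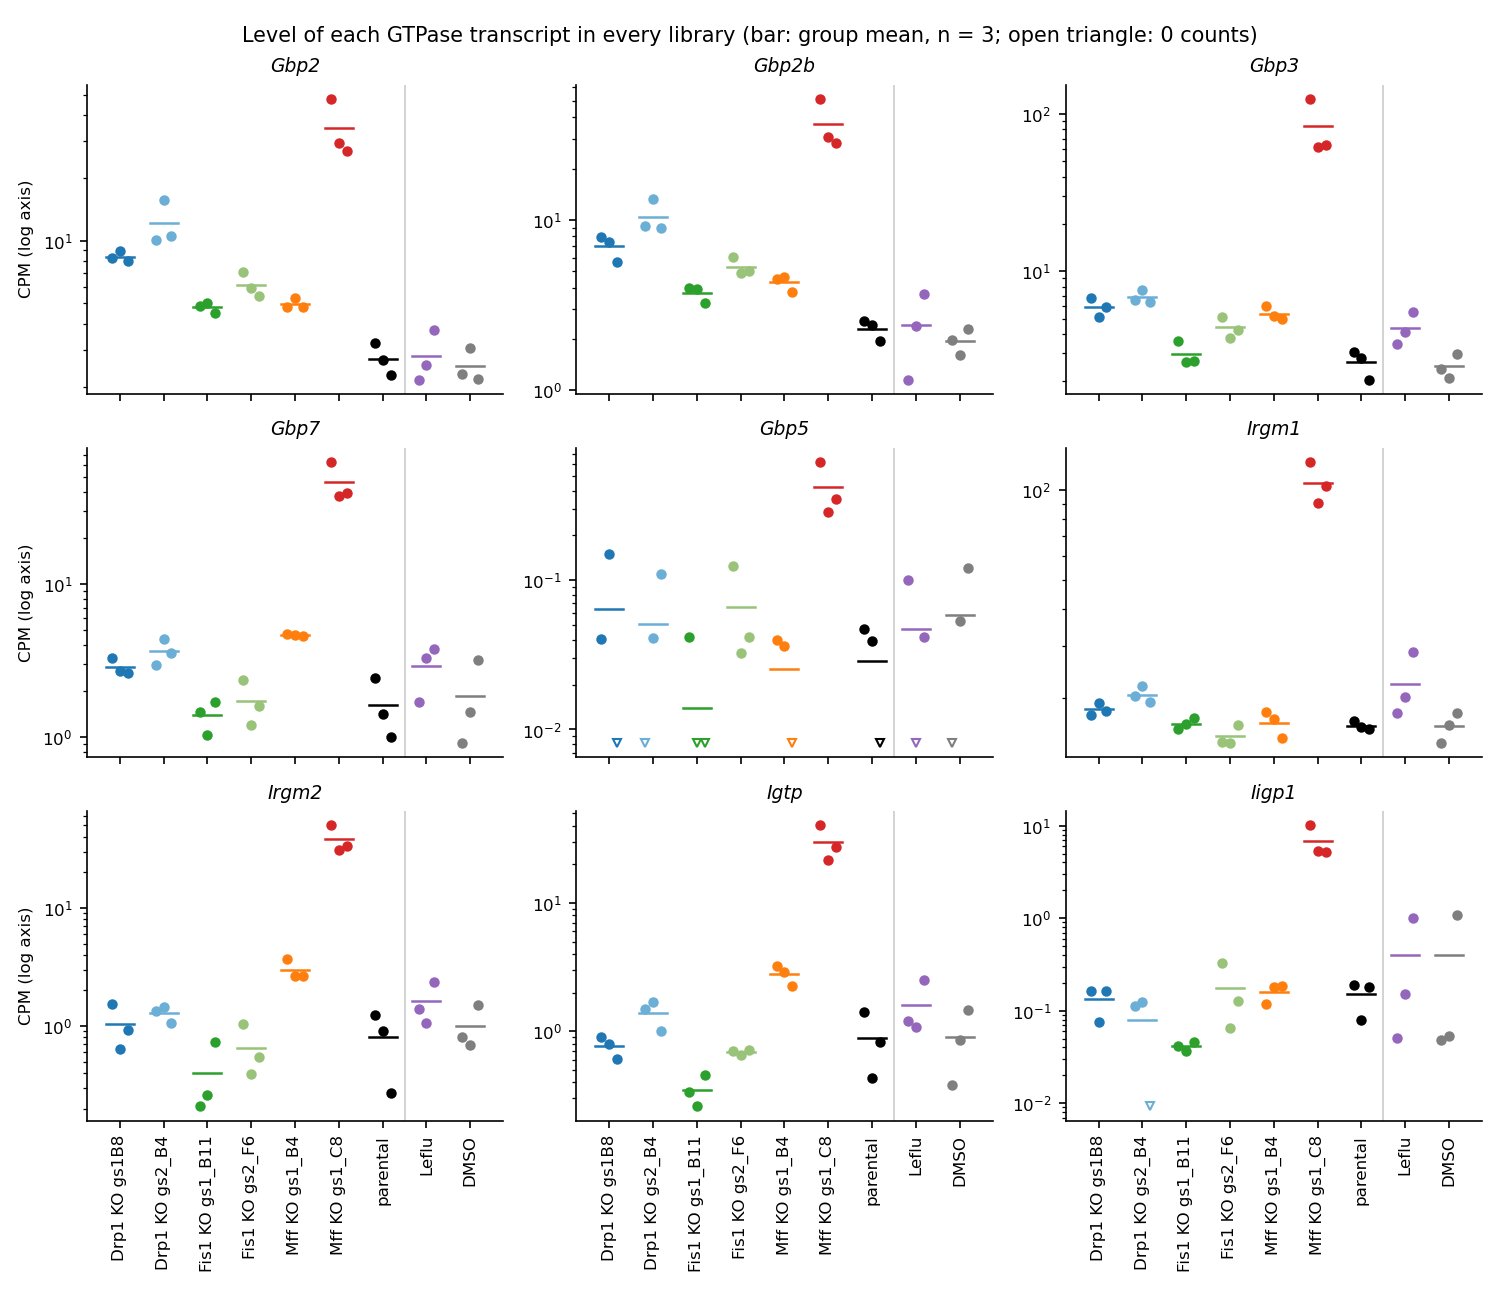
Level of each of the 9 members in every library (y axis, CPM on a log axis; each panel has its own scale) for the 6 knockout clones, parental cells, Leflu and DMSO; points are libraries, bars are group means of 3 libraries, and open triangles at the bottom mark libraries with 0 counts. The 3 gs1_C8 libraries lie highest in every panel, and the clone libraries all lie above the parental ones in the Gbp2 and Gbp2b panels.

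Gbp3 and Gbp7 lie side by side in the cluster, between Gbp5 and Gbp2b. By edgeR they were called higher in both Drp1 and both Mff clones and were not called in either Fis1 clone. A call rests on an adjusted p and not on the size of a difference. In gs2_F6 the count of members called higher depended on the method. It was 2 by edgeR, and 3 by DESeq2 or at an unadjusted p below 0.05. Gbp3 stood at 6.71, 5.14 and 5.94 CPM in gs1B8, 6.59, 7.60 and 6.34 CPM in gs2_B4, 3.58, 2.65 and 2.70 CPM in gs1_B11, 5.14, 3.79 and 4.24 CPM in gs2_F6, 6.02, 5.19 and 4.94 CPM in gs1_B4 and 125.7, 62.0 and 63.2 CPM in gs1_C8, against 3.08, 2.80 and 2.04 CPM in parental cells. All clones except gs1_B11 were above the parental range. On the log2 scale the fold changes were 1.15 ± 0.30 in gs1B8, 1.36 ± 0.30 in gs2_B4, 0.17 ± 0.34 in gs1_B11, 0.71 ± 0.31 in gs2_F6, 0.995 ± 0.304 in gs1_B4 and 4.97 ± 0.25 in gs1_C8. Without parental library 3 the gs1_B4 call was lost, at 0.84.

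Gbp7, which has been linked in mouse cells to the assembly of antimicrobial protein complexes, parted the clones differently. Its levels were 3.30, 2.69 and 2.62 CPM in gs1B8, 2.94, 4.38 and 3.54 CPM in gs2_B4, 1.46, 1.03 and 1.69 CPM in gs1_B11, 2.36, 1.198 and 1.60 CPM in gs2_F6, 4.71, 4.65 and 4.57 CPM in gs1_B4 and 63.1, 37.7 and 39.8 CPM in gs1_C8, against 2.41, 1.42 and 1.00 CPM in parental cells. Here gs1_B4 ranked second of the 9 groups, with a mean of 4.64 CPM, whereas for Gbp2 it ranked below both Drp1 clones and gs2_F6. The log2 fold changes were 0.83 ± 0.31 in gs1B8, 1.16 ± 0.30 in gs2_B4, -0.21 ± 0.35 in gs1_B11, 0.07 ± 0.34 in gs2_F6, 1.51 ± 0.29 in gs1_B4 and 4.86 ± 0.25 in gs1_C8. The gs1B8 call was lost without any 1 of the 3 gs1B8 libraries (0.72, 0.88 and 0.89) or without parental library 2 (0.76) or 3 (0.59). Summed over Gbp3 and Gbp7, the level was 8.80 ± 1.11 CPM in gs1B8, 10.5 ± 1.3 CPM in gs2_B4, 4.37 ± 0.68 CPM in gs1_B11, 6.11 ± 1.28 CPM in gs2_F6, 10.02 ± 0.63 CPM in gs1_B4 and 130.5 ± 50.5 CPM in gs1_C8, against 4.25 ± 1.23 CPM in parental cells (SD, n = 3 each).

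Gbp5, which in macrophages promotes inflammasome assembly, was close to undetected. It had 17, 8 and 8 counts in the gs1_C8 libraries and 0 to 4 counts in each of the other 24, and it failed the low-count filter, so no fold change was fitted. The gs1_C8 libraries at 0.62, 0.29 and 0.35 CPM lay above all others, against 0.05, 0.04 and 0 CPM in parental cells.

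Irgm1, a regulator that protects the membranes of the cell from the effector GTPases, was the member with the highest level in parental cells and the smallest fold change in gs1_C8. It stood at 17.7, 19.3 and 18.2 CPM in gs1B8, 20.4, 21.95 and 19.4 CPM in gs2_B4, 15.8, 16.4 and 17.1 CPM in gs1_B11, 14.3, 14.2 and 16.3 CPM in gs2_F6, 17.97, 17.1 and 14.8 CPM in gs1_B4 and 124.2, 90.1 and 103.5 CPM in gs1_C8, against 16.8, 16.01 and 15.8 CPM in parental cells. Apart from gs1_C8, both Drp1 clones were above the parental range and the other clones overlapped it. As log2 fold changes, these were 0.17 ± 0.10 in gs1B8, 0.33 ± 0.10 in gs2_B4, 0.03 ± 0.10 in gs1_B11, -0.13 ± 0.10 in gs2_F6, 0.01 ± 0.10 in gs1_B4 and 2.70 ± 0.10 in gs1_C8. In the 5 clones other than gs1_C8 the group means thus spanned only 14.96 to 20.6 CPM, and gs2_B4 was the only one of these called.

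Irgm2 and Igtp, the other regulators of this family, were higher in both Mff clones and were not called higher in the Drp1 or Fis1 clones. Irgm2 had 1.55, 0.64 and 0.93 CPM in gs1B8, 1.34, 1.45 and 1.07 CPM in gs2_B4, 0.21, 0.26 and 0.73 CPM in gs1_B11, 1.04, 0.39 and 0.55 CPM in gs2_F6, 3.68, 2.65 and 2.63 CPM in gs1_B4 and 50.2, 31.1 and 33.3 CPM in gs1_C8, against 1.23, 0.91 and 0.27 CPM in parental cells. The 2 Mff clones stood clear of the parental range and the other 4 clones overlapped it. The log2 fold changes were 0.35 ± 0.46 in gs1B8, 0.66 ± 0.45 in gs2_B4, -1.05 ± 0.57 in gs1_B11, -0.34 ± 0.51 in gs2_F6, 1.86 ± 0.39 in gs1_B4 and 5.55 ± 0.34 in gs1_C8. With 5 to 38 counts per library in the Drp1 and Fis1 clones, against 6 to 26 in parental cells, smaller differences were not detectable at this depth.

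Igtp, also named Irgm3, had 0.90, 0.79 and 0.61 CPM in gs1B8, 1.49, 1.69 and 1.00 CPM in gs2_B4, 0.33, 0.26 and 0.46 CPM in gs1_B11, 0.70, 0.65 and 0.71 CPM in gs2_F6, 3.25, 2.87 and 2.27 CPM in gs1_B4 and 40.4, 21.8 and 27.2 CPM in gs1_C8, against 1.42, 0.43 and 0.82 CPM in parental cells. Both Mff clones were above the parental range and the other clones overlapped it. In log2 units the fold changes were -0.19 ± 0.39 in gs1B8, 0.66 ± 0.35 in gs2_B4, -1.32 ± 0.46 in gs1_B11, -0.35 ± 0.40 in gs2_F6, 1.65 ± 0.32 in gs1_B4 and 5.08 ± 0.28 in gs1_C8. Igtp in gs1_B11 was the only called decrease of a member, from 8, 7 and 10 counts against 30, 11 and 18 counts in parental cells. That call was lost without gs1_B11 library 1 (-1.28) or 2 (-1.13) or without parental library 1 (-0.82). Summed over Irgm2 and Igtp, the level was 1.80 ± 0.55 CPM in gs1B8, 2.68 ± 0.55 CPM in gs2_B4, 0.75 ± 0.38 CPM in gs1_B11, 1.35 ± 0.36 CPM in gs2_F6, 5.78 ± 1.04 CPM in gs1_B4 and 68.0 ± 19.98 CPM in gs1_C8, against 1.69 ± 0.84 CPM in parental cells (SD, n = 3 each).

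**Figure D3:**
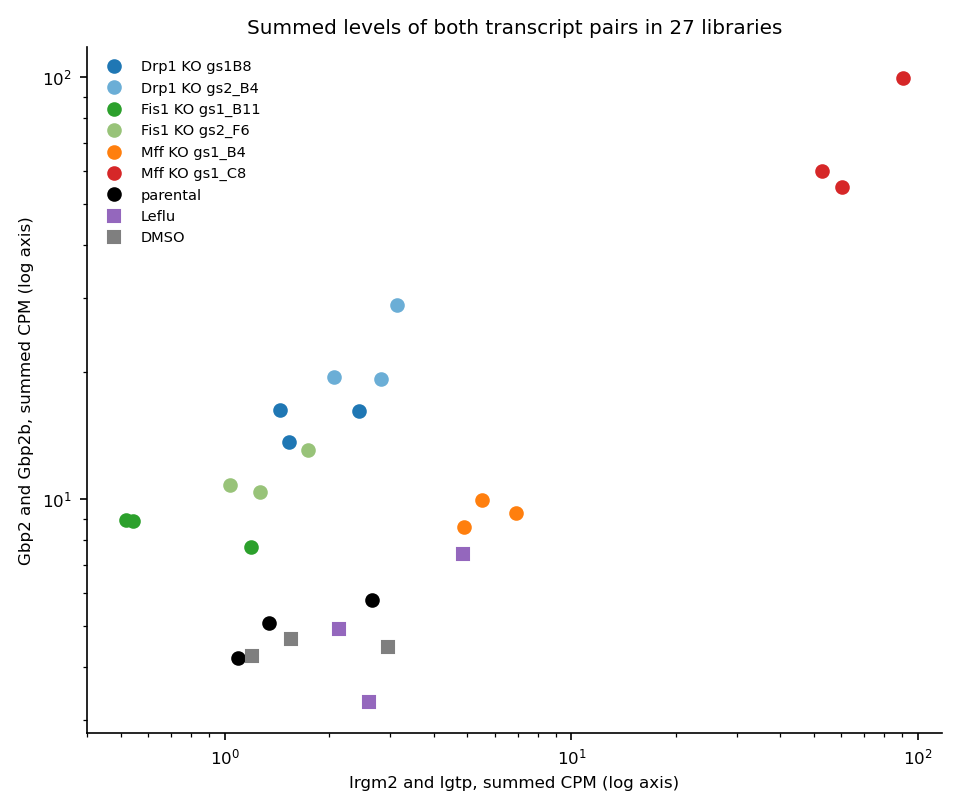
Summed CPM of Gbp2 and Gbp2b (y axis) against summed CPM of Irgm2 and Igtp (x axis), both on log axes, with 1 point per library of the 9 groups. The Drp1 and Fis1 clones lie above the parental libraries at Irgm2 and Igtp sums that overlap the parental ones or lie below most of them, gs1_B4 lies to the right at 4.90 to 6.93 CPM with Gbp2 and Gbp2b at 8.59 to 9.94 CPM, and gs1_C8 lies at the upper right.

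Iigp1, the effector that is loaded onto parasite vacuoles, had 276, 147 and 117 counts in gs1_C8, or 10.1, 5.27 and 5.15 CPM, against 4, 2 and 4 counts in parental cells, or 0.19, 0.08 and 0.18 CPM. In the 5 other clones it had 0 to 8 counts per library. Its low-count filter was passed only through gs1_C8, where the log2 fold change was 5.49 ± 0.45, and elsewhere its fitted values ran from -1.72 ± 0.89 in gs1_B11 to 0.17 ± 0.67 in gs2_F6. The gs1_B11 libraries had 1 count each and lay below the parental range, at a depth where such a difference cannot be told from counting error. In the drug arm Leflu library 3 had 24 counts and DMSO library 3 had 18 counts, and the other 4 libraries had 1 to 3.

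In clone gs1_C8 all 9 members were above every parental library, by ratios of mean CPM of 12.8 for Gbp2, 16 for Gbp2b, 31.7 for Gbp3, 14.5 for Gbp5, 29.1 for Gbp7, 6.55 for Irgm1, 47.6 for Irgm2, 33.5 for Igtp and 45.7 for Iigp1. It exceeded the other Mff clone, gs1_B4, by ratios of 6.38 for Irgm1 to 42.5 for Iigp1, and gs1_B4 overlapped the parental range for Irgm1, Iigp1 and Gbp5. Both Mff clones carry clone codes that begin with gs1, and the labels do not say what gs1 stands for. The difference between both clones was not tested. Library 1 of gs1_C8 was higher than the mean of libraries 2 and 3 for every member, by ratios of 1.28 for Irgm1 to 2.01 for Gbp3. Left out, it lowered the log2 fold change of Gbp3 to 4.57, of Gbp2 to 3.38 and of Iigp1 to 5.11. All 8 fitted members were still called, among them Iigp1, which passed the filter only through this clone. The 7 fibroblast markers summed to 6.42 to 8.07 CPM in gs1_C8, against 4.21 to 4.35 CPM in parental cells. Lum and Thy1 had 0 counts in both groups, Col1a2 in gs1_C8 and not in parental cells, and Pdgfrb and Dcn the reverse. Pdgfra, the only fibroblast marker tested, averaged 7.26 CPM in gs1_C8, against 4.05 CPM in parental cells (0.83 ± 0.14, adjusted p = 6.3e-05). The part of these markers in the result was not tested. In bulk RNA, more transcript per cell and more cells that express it cannot be told apart.

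Per kilobase of exon, where genes can be compared, Irgm1 came first in parental cells at 2.78 CPM per kb, then Gbp2 (1.08), Gbp2b (0.816), Gbp3 (0.808), Igtp (0.440), Gbp7 (0.287), Irgm2 (0.218), Iigp1 (0.0257) and Gbp5 (0.00436). In gs1_C8 the order was Gbp3 at 25.6 CPM per kb, Irgm1 (18.2), Igtp (14.7), Gbp2 (13.8), Gbp2b (13), Irgm2 (10.3), Gbp7 (8.35), Iigp1 (1.18) and Gbp5 (0.0634). Gbp3 thus stood below Irgm1, Gbp2 and Gbp2b in parental cells and above all 3 in gs1_C8. Iigp1 and Gbp5 were last in both.

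**Figure D4:**
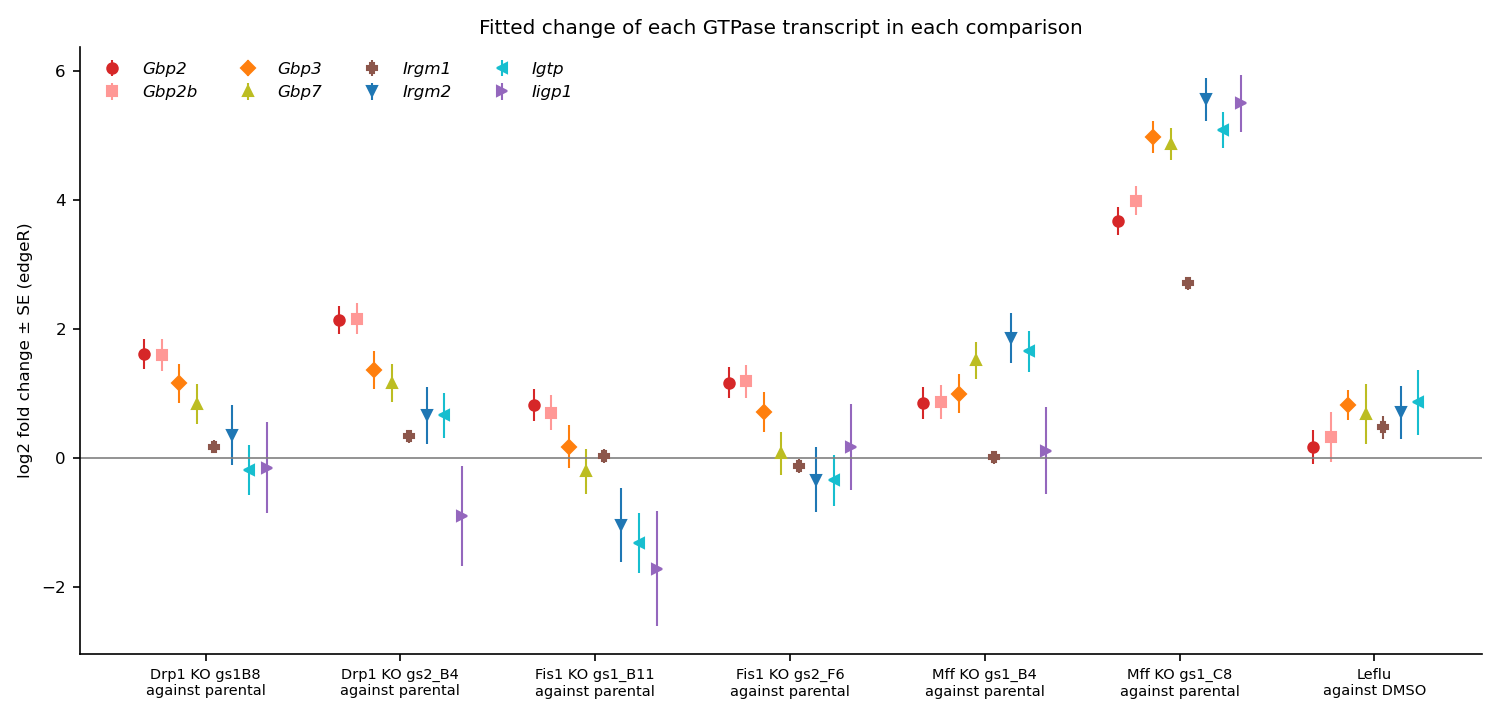
Fitted log2 fold change of the 8 members that passed the filter (7 in the drug arm), with bars of 1 SE, in each clone against parental cells and in Leflu against DMSO. In the 4 Drp1 and Fis1 clones Gbp2 and Gbp2b lie above the other fitted members, and in both Mff clones Irgm2 and Igtp lie above Gbp2 and Gbp2b.

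Counts of called members are given beside the share of all 13940 tested genes called in the same direction at an adjusted p below 0.05 (edgeR quasi-likelihood test, Benjamini-Hochberg), and since the members were chosen on these comparisons nothing is read from them. In gs1B8, 4 of 8 fitted members were called higher and 0 lower, beside 12.1% and 17.4% of all genes. In gs2_B4, 5 were higher and 0 lower, beside 24.1% and 26.3%. In gs1_B11, 2 were higher and 1 lower, beside 21.4% and 25.9%, and these counts moved with single libraries. Without parental library 1, 2 or 3 or gs1_B11 library 1 or 2 the count of higher members was 1. The count of lower members was 0 without parental library 1 or gs1_B11 library 1 or 2, and 2 without parental library 3 or gs1_B11 library 3. In gs2_F6, 2 were higher and 0 lower, beside 13.1% and 18.2%, and DESeq2 called 3 higher and 0 lower. In gs1_B4, 6 were higher and 0 lower, beside 20.9% and 26.8%. In gs1_C8, 8 were higher and 0 lower, beside 21.5% and 25.2%. Iigp1, 1 of these 8, passed the filter only through gs1_C8, so its difference there was set by the filter. The median log2 fold changes of the fitted members were 0.59, 0.91, -0.09, 0.12, 0.93 and 4.92 in the same order of clones, against medians of all genes between -0.02 and 0.00. The share of all tested genes that lay above every parental library in a clone was 20% to 29.3%. Of the 9 members, 5 did so in gs1B8, 5 in gs2_B4, 2 in gs1_B11, 3 in gs2_F6, 6 in gs1_B4 and 9 in gs1_C8.

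Leflunomide left no member past the threshold. With 7 members fitted by edgeR, 0 were called higher and 0 lower, beside 1.84% and 0.944% of 12603 genes. At an unadjusted p below 0.05 there were 2 higher and 0 lower, and DESeq2 called 0 in either direction. When all 27 libraries were fitted together 1 was called higher. Gbp3 stood at 3.46, 4.12 and 5.53 CPM in Leflu, against 2.39, 2.09 and 2.96 CPM in DMSO, with a log2 fold change of 0.82 ± 0.23. Irgm1 stood at 17.9, 20.3 and 28.6 CPM in Leflu, against 14.2, 16.4 and 17.9 CPM in DMSO, with a log2 fold change of 0.47 ± 0.18. These were the only members whose ranges did not overlap, where 13.6% of all tested genes were above in every Leflu library. The other fitted values were 0.17 ± 0.26 for Gbp2, 0.32 ± 0.39 for Gbp2b, 0.68 ± 0.47 for Gbp7, 0.70 ± 0.41 for Irgm2 and 0.86 ± 0.51 for Igtp. The highest Leflu value was in library 3 for all 9 members except Gbp5, and without it the values ran from -0.15 for Gbp2b to 0.61 for Gbp3. Without DMSO library 3 they ran from 0.09 for Gbp2 to 1.38 for Igtp. DMSO library 3 likewise held the highest DMSO value of every member except Gbp2. Gbp7, for example, was at 3.20 CPM there, against 0.91 and 1.45 CPM in DMSO libraries 1 and 2. Leukocyte markers summed to 5.69 to 9.47 CPM in Leflu, against 1.91 to 2.54 CPM in DMSO, and epithelial markers to 1830 to 2080 CPM in Leflu, against 2450 to 2540 CPM in DMSO. Cd3e, Cd4, Cd8a, Adgre1, Ncr1 and Nkg7 were at 0 counts in both. Csf1r, the only leukocyte marker tested, averaged 7.39 CPM in Leflu, against 2.20 CPM in DMSO (1.75 ± 0.23, adjusted p = 0.012). The part of the markers in these values was not tested.

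Of 15 other interferon-inducible GTPases tested, 8 passed the low-count filter only through gs1_C8, so that their difference there was set by the filter, and no count is drawn from them. They include Gbp6, at 7.999 CPM in gs1_C8, against 0.164 CPM in parental cells, and Mx2, an antiviral GTPase that also belongs to the dynamin superfamily, at 14.02 CPM in gs1_C8, against 0.284 CPM in parental cells. Of the 7 that passed without gs1_C8, 6 rose and 0 fell in that clone, beside 21.5% and 25.2% of all genes. Tgtp1, an effector GTPase of the same family as Iigp1, averaged 41.9 CPM in gs1_C8, against 0.787 CPM in parental cells (5.74 ± 0.33, adjusted p = 3.2e-11). In gs1_B4 the list of 15 had 2 higher and 0 lower, beside 20.9% and 26.8% of all genes. There Gbp9 averaged 4.79 CPM, against 2.02 CPM in parental cells (1.23 ± 0.27, adjusted p = 0.00073), and the second was 9930111J21Rik2 (0.47 ± 0.15, adjusted p = 0.015), whose call was lost without gs1_B4 library 2 or parental library 1 and left 1. The list had 1 higher (9930111J21Rik2) and 1 lower (Ifi47) in gs1B8, beside 12.1% and 17.4%. Neither call held without parental library 1 or gs1B8 library 3, nor that of Ifi47 without gs1B8 library 2. In gs2_B4 the list had 4 higher and 1 lower, beside 24.1% and 26.3%. In gs1_B11 it had 2 higher and 0 lower, beside 21.4% and 25.9%, and in gs2_F6 1 higher and 2 lower, beside 13.1% and 18.2%. Outside gs1_C8 none of these counts stood far above its share. Leaving out single libraries moved the counts: gs2_B4 to 2 higher without gs2_B4 library 1 or parental library 2 and to 1 without gs2_B4 library 2. The 1 lower gene there, Irgq, was not called without gs2_B4 library 1 or parental library 2, and without parental library 3 there were 2. The gs1_B11 count fell to 1 higher without gs1_B11 library 1 or 2 or any parental library, and 1 gene was called lower without gs1_B11 library 1. In gs2_F6 there were 2 higher without gs2_F6 library 3, parental library 1 or gs1_C8 library 1, and 1 lower without gs2_F6 library 1 or 2 or parental library 1 or 2. In gs1_B4 1 gene was called lower without gs1_C8 library 1, and in gs1_C8 1 without gs1_B4 library 1 or 3. Beside these edgeR counts of 0 lower, the unadjusted test had 0 in gs1_B11, 1 in gs1_B4 and 1 in gs1_C8, and DESeq2 called 0, 1 and 0.

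Antiviral interferon-stimulated genes without a GTPase role are set beside the members. This list, like the other gene lists here, was chosen with earlier results of these data known. Its counts and p-values are therefore no independent yardstick. Of the 29 that passed the filter without gs1_C8, 29 rose and 0 fell in that clone, beside 21.5% and 25.2% of all genes, and Oas2 passed only through it. Of 30 tested, 17 rose and 1 fell in gs1_B4, beside 20.9% and 26.8%, with a median log2 fold change of 0.68. Trim30a, a ubiquitin ligase gene, averaged 43.6 CPM in gs1_C8 and 2.59 CPM in gs1_B4, against 0.312 CPM in parental cells (log2 7.12 ± 0.30 and 3.03 ± 0.38, adjusted p = 2.5e-13 and 1.5e-06). Ifi44 averaged 96.7 CPM in gs1_C8 and 2.99 CPM in gs1_B4, against 0.509 CPM in parental cells (7.58 ± 0.34 and 2.54 ± 0.49, adjusted p = 7.1e-13 and 0.00025). The Fis1 clone gs1_B11 had 0 higher and 9 lower (median -0.57), beside 21.4% and 25.9% of all genes, and gs2_F6 had 0 higher and 5 lower (median -0.03), beside 13.1% and 18.2%. The lower counts in gs1_B11 and gs2_F6 are both near those shares. Ifit2, which encodes a protein that binds viral RNA, averaged 2.73 CPM in gs1_B11 and 0.842 CPM in gs2_F6, against 10.2 CPM in parental cells (-1.89 ± 0.19 and -3.63 ± 0.22, adjusted p = 9.2e-08 and 1.9e-10). In the Drp1 clones the list had 1 higher and 4 lower in gs1B8 (median -0.12), beside 12.1% and 17.4%, and 7 higher and 4 lower in gs2_B4 (median 0.22), beside 24.1% and 26.3%, and Ifit2 was again lower, at 5.23 CPM in gs1B8 and 3.12 CPM in gs2_B4 (-0.97 ± 0.17 and -1.72 ± 0.18, adjusted p = 0.00024 and 1.5e-07). The medians of all genes lay between -0.02 and 0.00.

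For the antiviral counts of 0 with edgeR, the unadjusted test had 0 higher in gs1_B11 and 2 in gs2_F6, and DESeq2 called 0 and 2, and for the 0 lower in gs1_C8 both gave 0. Single libraries moved some of these antiviral counts. In gs1B8 there were 4 higher without parental library 1 or gs1_C8 library 1, 2 higher without gs1_C8 library 2, and 7 lower without gs1_C8 library 1. In gs2_B4 there were 4 higher without parental library 2 and 2 lower without parental library 3 or gs2_B4 library 3. In gs1_B11 there were 14 lower without gs1_C8 library 1. In gs2_F6 there were 3 higher without gs1_C8 library 1 and 1 higher without parental library 1, gs2_F6 library 2 or gs1_C8 library 2, and 3 lower without gs2_F6 library 2 or 3. In gs1_B4 there were 2 lower without gs1_B4 library 1. All groups of the knockout arm were fitted together, and why a gs1_C8 library moved counts of other clones was not tested.

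**Figure D5:**
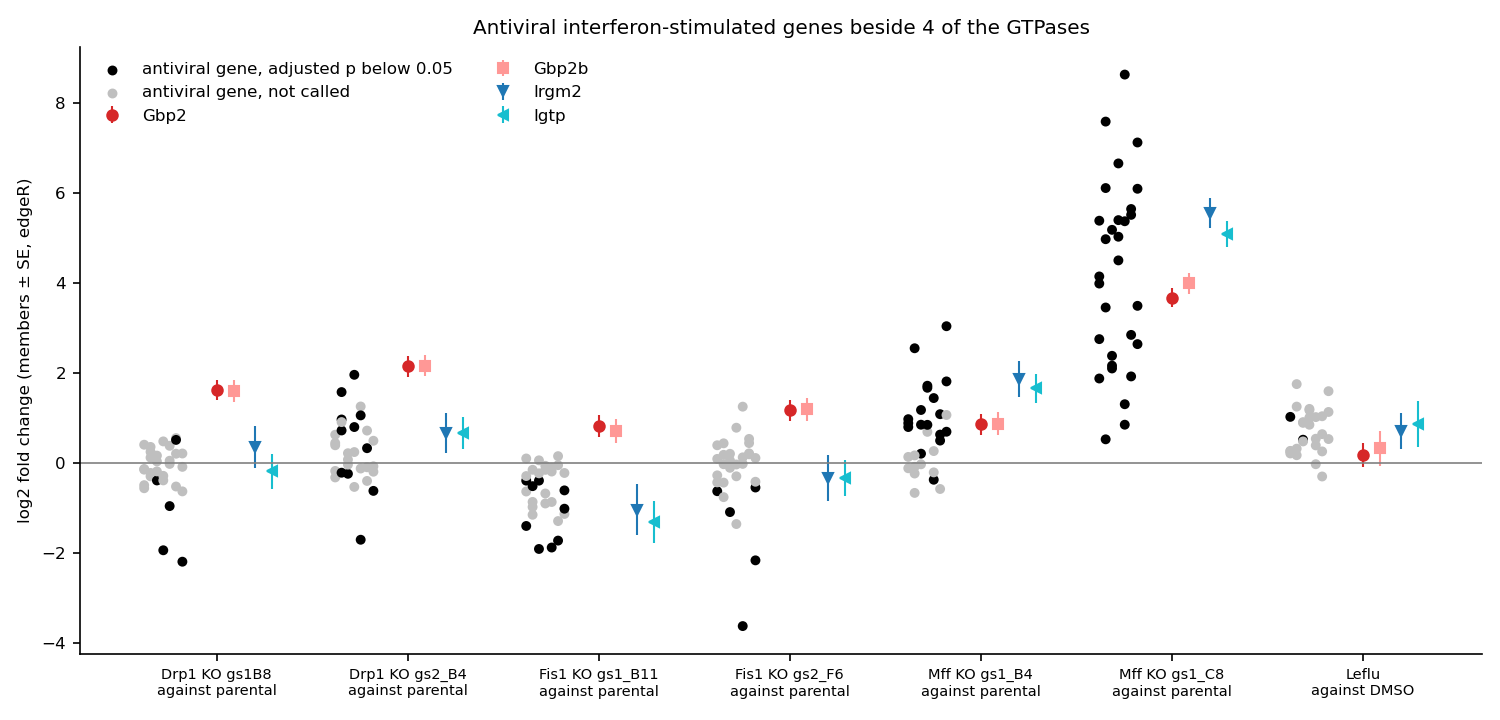
Log2 fold change of the antiviral genes (dots; black where called at an adjusted p below 0.05, grey where not) beside Gbp2, Gbp2b, Irgm2 and Igtp with bars of 1 SE, in each clone against parental cells and in Leflu against DMSO. Gbp2 and Gbp2b lie between 0.70 and 2.16 in the 4 Drp1 and Fis1 clones, where the medians of the antiviral genes are -0.57 to 0.22, and Irgm2 and Igtp lie above Gbp2 and Gbp2b in both Mff clones.

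Correlations of log2(CPM + 1) between members restate the same levels, so they add no evidence for a parting of Gbp2 and Gbp2b from Irgm2 and Igtp. They are given as a description, also because libraries of a clone share their line. Over 21 knockout-arm libraries every pair had r between 0.814 and 0.995, which gs1_C8 alone can give. Over the 18 libraries without gs1_C8, r was 0.986 for Gbp2 with Gbp2b, 0.848 for Gbp2 with Gbp3, 0.515 for Gbp2 with Gbp7, 0.172 for Gbp2 with Irgm2 and 0.141 for Gbp2 with Igtp. In the same 18 libraries r was 0.897 for Gbp7 with Irgm2 and 0.898 for Irgm2 with Igtp. Other pairs lay in between, with 0.669 for Gbp2 with Irgm1, 0.810 for Gbp3 with Gbp7 and 0.589 for Gbp3 with Irgm2. Pairs that share reads are tied in part by how those reads were split. This applies to Gbp2 with Gbp2b, to Irgm2 with Igtp and to Gbp3 with Gbp7, and not to Gbp7 with Irgm2.

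Among 11672 genes, those most like each member over the 21 libraries were looked up by Pearson r of the same values. After Gbp2b (0.995), the nearest to Gbp2 were Ifitm3, an interferon-induced membrane protein (0.943, and 0.804 without gs1_C8), and Clic4 (0.942 and 0.825). The nearest to Gbp3 was Parp14 (0.990 and 0.874). The nearest to Gbp7 were Eif2ak2, the RNA-sensing kinase PKR, and Irgm2 (0.989 and 0.897 for each). The nearest to Igtp were Ifi44 (0.994 and 0.950), Ifit1 (0.993 and 0.934) and Ddx60 (0.992 and 0.931), and the nearest to Irgm2 was Igtp (0.989 and 0.898). Irgm1 was nearest to Gm43302 (0.988 and 0.598), and Iigp1 to Mx2 (0.996 and 0.645). Both Iigp1 and Mx2 passed the low-count filter only through gs1_C8. These lists depend on the measure: by Spearman's rho 0 to 3 of the 5 nearest genes of each member were kept.

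The interferon genes themselves were close to undetected. None of 14 interferon genes passed the low-count filter, so none was tested. Ifnb1, which encodes interferon beta, had 4, 3 and 3 counts in gs1_C8, 1, 1 and 1 in gs1_B4, and 0 in every library of the other clones and of the parental cells. Ifng, which encodes interferon gamma, had 0, 2 and 1 counts in gs1_C8, 0, 0 and 1 in gs1B8, 1, 1 and 0 in gs2_F6, and 0 in each library of the other 3 clones and of the parental cells. The alternative with no low-count filter called 1 interferon gene higher in gs1_C8.

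Of 26 tested receptors, JAK-STAT components and IRF regulators, 11 rose and 4 fell in gs1_C8, beside 21.5% and 25.2% of all genes. In gs1_B4 12 rose and 2 fell, beside 20.9% and 26.8%. Irf9, a transcription factor that acts at response elements, averaged 52.5 CPM in gs1_C8 and 11.99 CPM in gs1_B4, against 8.53 CPM in parental cells (log2 2.61 ± 0.10 and 0.46 ± 0.11, adjusted p = 1.2e-13 and 0.0015). Stat2 rose in gs1_C8 (1.97 ± 0.10, adjusted p = 3.9e-12), and gs1_B4 gave 0.19 ± 0.11 (adjusted p = 0.15). Usp18, an inhibitor of type I interferon receptor signalling that interferon itself induces, averaged 64.4 CPM in gs1_C8 and 3.14 CPM in gs1_B4, against 0.827 CPM in parental cells (6.28 ± 0.25 and 1.90 ± 0.32, adjusted p = 1.3e-13 and 5.4e-05). Irf7 averaged 64.8 CPM in gs1_C8, against 1.44 CPM in parental cells (5.48 ± 0.29, adjusted p = 8.8e-12). The 6 receptor genes of the list were split in gs1_C8. Ifngr1 and Ifngr2 gave 0.02 ± 0.06 and 0.01 ± 0.07 (adjusted p = 0.82 and 0.91), and Ifnar1 and Ifnar2 fell by 0.26 ± 0.07 and 0.38 ± 0.09 on the log2 scale (adjusted p = 0.0027 and 0.0016). Il10rb and Ifnlr1, which encode subunits of the interferon lambda receptor, rose by 0.46 ± 0.08 and 0.47 ± 0.14 (adjusted p = 0.00014 and 0.0087). Jak1, Jak2 and the feedback inhibitor Socs1 were not called in gs1_C8 (0.02 ± 0.05, 0.05 ± 0.06 and 0.31 ± 0.20, adjusted p = 0.8, 0.49 and 0.23). Without gs1_B4 library 1 the lower count of that clone was 4.

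In the Drp1 and Fis1 clones, where Gbp2 and Gbp2b were higher, the same regulators had 8 higher and 2 lower in gs1B8, 6 and 5 in gs2_B4, 5 and 9 in gs1_B11 and 7 and 7 in gs2_F6. The shares of all genes were 12.1% and 17.4%, 24.1% and 26.3%, 21.4% and 25.9%, and 13.1% and 18.2% in that order. The higher counts in gs2_B4 and gs1_B11 are near these shares. Irf1, a direct activator of Gbp2 in mouse cells, averaged 38.3 CPM in gs1B8, 42.4 CPM in gs2_B4, 35.3 CPM in gs1_B11, 36.5 CPM in gs2_F6, 25.3 CPM in gs1_B4 and 47.7 CPM in gs1_C8, against 28.6 CPM in parental cells. Its log2 fold changes were 0.41 ± 0.12, 0.56 ± 0.12, 0.31 ± 0.12, 0.34 ± 0.12, -0.20 ± 0.12 and 0.73 ± 0.12 in that order, with adjusted p of 0.013, 0.00059, 0.042, 0.036, 0.18 and 4e-05. Irf1 was therefore called higher in 5 of 6 clones and not in gs1_B4. The call was lost in gs1B8 without its library 1 (0.35), in gs1_B11 without its library 1 (0.25) or 2 (0.29) or parental library 2 (0.28) or 3 (0.29), and in gs2_F6 without its library 1 (0.30) or 2 (0.34) or parental library 2 (0.32) or 3 (0.33). Nlrc5, an activator of class I antigen presentation genes, averaged 0.0384 CPM in gs2_F6 and 2.13 CPM in gs1_B4, against 0.671 CPM in parental cells (-3.99 ± 0.61 and 1.63 ± 0.35, adjusted p = 4.3e-05 and 0.00067). In gs1_B11 there were 3 higher regulators without parental library 2. In gs2_F6 there were 4 higher without gs2_F6 library 1 or parental library 2, and 4 lower without gs2_F6 library 1.

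Of 18 tested interferon-gamma targets outside the GTPases, 7 rose in gs1B8, 8 in gs2_B4, 4 in gs1_B11, 3 in gs2_F6, 7 in gs1_B4 and 14 in gs1_C8, beside 12.1%, 24.1%, 21.4%, 13.1%, 20.9% and 21.5% of all genes. The numbers that fell were 0, 1, 3, 2, 2 and 1 in the same order, beside 17.4%, 26.3%, 25.9%, 18.2%, 26.8% and 25.2%. The gs1_B11 and gs2_F6 counts that rose are near these shares. In gs1_C8 Cxcl11 passed the filter only through that clone, and 13 of the other 17 rose. Psme1, a subunit of the proteasome activator PA28, was the only one called higher in all 6 clones, at 74.8 CPM in gs1B8, 80.4 CPM in gs1_B11 and 62.0 CPM in gs2_F6, against 41.9 CPM in parental cells (0.83 ± 0.10, 0.95 ± 0.10 and 0.55 ± 0.10, adjusted p = 5e-06, 3.6e-07 and 0.00036). In gs1_B4 its change was 0.27, and that call was lost without gs1_B4 library 1 or 2 or parental library 2 or 3. Nos2, the inducible nitric oxide synthase, averaged 7.19 CPM in gs2_B4, against 0.206 CPM in parental cells (5.09 ± 0.45, adjusted p = 1.3e-08). Cxcl10, a chemokine, averaged 64.6 CPM in gs1_C8 and 6.78 CPM in gs1_B4, against 2.88 CPM in parental cells (4.47 ± 0.14 and 1.21 ± 0.16, adjusted p = 4.2e-15 and 3.2e-06). Cxcl10 was also called higher in gs2_B4, at 7.61 CPM (1.39 ± 0.16, adjusted p = 3.4e-07), and not in gs1B8, gs1_B11 or gs2_F6. The counts that fell moved with single libraries. In gs1B8 1 gene was called lower without gs2_F6 library 1 or gs1_B4 library 3. In gs1_B11 1 was lower without parental library 1 or gs1_B11 library 2 or 3, and in gs1_B4 1 without parental library 1 or 3 or gs1_B4 library 3. In gs2_F6 the 2 became 0 without parental library 1 or 3 and 1 without any 1 other library of the knockout arm except gs1B8 library 1 and gs1_B4 libraries 1 and 3. For the 0 in gs1B8, the unadjusted edgeR test gave 1 lower and DESeq2 gave 0.

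Partners of these GTPases at the vacuole and the inflammasome were split. Of 21 tested, the number higher and lower was 1 and 6 in gs1B8, 6 and 5 in gs2_B4, 1 and 7 in gs1_B11, 2 and 7 in gs2_F6, 8 and 5 in gs1_B4 and 9 and 4 in gs1_C8. The shares of all genes were 12.1% and 17.4%, 24.1% and 26.3%, 21.4% and 25.9%, 13.1% and 18.2%, 20.9% and 26.8%, and 21.5% and 25.2% in that order. The lower counts in gs2_B4 and gs1_B4 and the higher count in gs2_F6 are near these shares. In gs2_B4 3 of these genes, Casp1, Aim2 and Il18, passed the filter only through that clone, which leaves 3 higher and 5 lower of 18, and in gs1_B4 Casp1 did, which leaves 7 higher and 5 lower of 20. Gsdmd, the pore-forming protein that acts downstream of the inflammasome, averaged 1.70 CPM in gs1B8, 0.823 CPM in gs2_B4, 1.64 CPM in gs1_B11 and 0.910 CPM in gs2_F6, against 7.08 CPM in parental cells. Its log2 fold changes were -2.06 ± 0.17, -3.12 ± 0.19, -2.10 ± 0.17 and -2.98 ± 0.19 in that order (adjusted p = 2.9e-08, 6.8e-11, 7.8e-09 and 2.7e-10). All 12 libraries of the Drp1 and Fis1 clones were thus below the parental range in this gene, in clones where Gbp2 was above it. In the Mff clones Gsdmd averaged 6.37 CPM in gs1_B4 and 12.6 CPM in gs1_C8 (-0.18 ± 0.15 and 0.82 ± 0.15, adjusted p = 0.36 and 0.00012). Casp4, the gene of the inflammasome protease caspase-11, averaged 1.11 CPM in gs1_B4, against 0.0289 CPM in parental cells (5.01 ± 0.59, adjusted p = 3.6e-06), where the parental libraries hold 1, 1 and 0 counts and the size of the fold is uncertain. Map1lc3b, an autophagy protein of the LC3 family, was called lower in all 6 clones, at 54.0 CPM in gs1B8 and 53.0 CPM in gs2_B4, against 73.2 CPM in parental cells (-0.45 ± 0.08 and -0.48 ± 0.08, adjusted p = 0.00014 and 2.4e-05), and its gs1_B4 call was lost without gs1_B4 library 3 or parental library 3, at -0.19 each. The 1 higher gene in gs1B8 was Casp4, whose call held in 4 of 13 alternatives and was lost without gs1B8 library 1 or 2 or any parental library. The gs1B8 count was then 0, except without parental library 1, and it was also 0 without gs2_B4 library 2 or 3, any gs1_B4 library or gs1_C8 library 2 or 3. In gs1_B11 2 were higher without gs1_C8 library 1, in gs2_F6 4 were lower without gs2_F6 library 2 or parental library 1, in gs1_B4 2 were lower without gs1_B4 library 3, and in gs1_C8 2 were lower without parental library 3.

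Prenylation anchors Gbp2, Gbp2b and Gbp5 to membranes, and 6 genes of its enzymes were tested. Fnta, the subunit shared by the farnesyl and geranylgeranyl transferases, was called lower in all 6 clones. It averaged 74.6 CPM in gs1B8, 67.4 CPM in gs2_B4, 83.0 CPM in gs1_B11, 82.9 CPM in gs2_F6, 78.9 CPM in gs1_B4 and 94.4 CPM in gs1_C8, against 102.6 CPM in parental cells. The log2 fold changes were -0.47 ± 0.05, -0.62 ± 0.05, -0.30 ± 0.05, -0.32 ± 0.05, -0.41 ± 0.05 and -0.13 ± 0.05 in that order (adjusted p = 2.8e-07, 1.3e-09, 2.3e-05, 2.3e-05, 5.2e-07 and 0.025). The gs1_C8 call held in 3 of 13 alternatives and was lost when any 1 of the 3 gs1_C8 libraries (-0.13, -0.11 and -0.12) or parental library 1 (-0.11) or 2 (-0.11) was left out. The number of these enzymes higher and lower was 0 and 2 in gs1B8, 1 and 2 in gs2_B4, 1 and 2 in gs1_B11, 1 and 1 in gs2_F6, 0 and 4 in gs1_B4 and 1 and 2 in gs1_C8. Over the 6 clones 12.1% to 24.1% of all genes were called higher and 17.4% to 26.8% lower. With 6 genes nothing is read from these counts, and single libraries moved most of them. In gs1B8 1 was lower without parental library 2 or gs1B8 library 3. In gs2_B4 2 were higher without gs1_B11 library 1 or 3. In gs1_B11 2 were higher without parental library 2 or gs1_C8 library 1 or 3, and 1 was lower without gs1_B11 library 1. In gs2_F6 0 were higher without gs2_F6 library 3. In gs1_C8 2 were higher without parental library 2, gs1_B11 library 1 or 3 or gs1_C8 library 3. There 1 was lower without parental library 3, and 0 without parental library 1 or 2, gs1_B11 library 1 or 3, gs2_B4 library 2 or gs1_C8 library 2 or 3. For the edgeR counts of 0 higher in gs1B8 and gs1_B4, the unadjusted test and DESeq2 gave 0. Pggt1b, which encodes the other subunit of the geranylgeranyl transferase, rose in gs1_B11 (0.53 ± 0.05, adjusted p = 9.1e-08).

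In leflunomide-treated cells 1.84% of all genes were called higher and 0.944% lower, which stand beside each list below. The antiviral list had 2 higher and 0 lower of 27 tested, 3 of which passed the filter only through Leflu, Isg15 (7.09 CPM in Leflu, against 3.51 CPM in DMSO, 1.02 ± 0.14, adjusted p = 0.015) and Ddx58 (75.7 CPM in Leflu, against 53.3 CPM in DMSO, 0.51 ± 0.08, adjusted p = 0.024). At an unadjusted p below 0.05 there were 18 higher and 0 lower, DESeq2 called 6 higher and 0 lower, and the median log2 fold change was 0.63, beside 0.00 for all genes. The count of 2 became 0 without DMSO library 1 or 2 or Leflu library 2, 5 without DMSO library 3 and 4 without Leflu library 3. The Isg15 call was also lost without Leflu library 1, at 1.03. The other GTPases had 1 higher and 0 lower of 7 tested, which was 9930111J21Rik2 (1.25 ± 0.21, adjusted p = 0.026), and its call was lost without DMSO library 1 or 2 or Leflu library 2, while 2 were called without Leflu library 3. For the 0 lower, the unadjusted test and DESeq2 also gave 0 in both lists. The interferon-gamma targets had 3 higher and 0 lower of 16 tested, with 0 higher without DMSO library 1 or 2 or Leflu library 2 and 1 without Leflu library 1 or DMSO library 3. The regulators had 1 higher, Irf7 (1.79 ± 0.37, adjusted p = 0.047), and 0 lower of 26, with 0 higher without DMSO library 1 or 2 or Leflu library 1 or 2 and 2 without Leflu library 3. The vacuole and inflammasome list had 0 called of 17 by edgeR, with 2 higher and 1 lower at an unadjusted p below 0.05 and 1 higher by DESeq2, and 2 were called higher without Leflu library 3. The prenylation enzymes had 0 called of 6 by edgeR, with 1 higher unadjusted and 0 by DESeq2, and 1 was called higher without Leflu library 3. For the 0 lower among interferon-gamma targets the unadjusted test and DESeq2 gave 0, and among regulators they gave 1 and 0.

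The genes that flank the chromosome 3 cluster were looked up after the values of the members were seen. Pdlim5, on the side of Gbp5, was called higher in the 5 clones other than gs1_C8, by 0.14 to 0.36 on the log2 scale (adjusted p = 0.01 or less), and gave -0.10 in gs1_C8 (adjusted p = 0.058). Gtf2b, on the other side, gave between -0.30 and 0.15 and was called lower in gs1_B11 (adjusted p = 0.0015) and gs1_C8 (adjusted p = 0.0028). Pkn2 gave between -0.16 and 0.15, with gs1B8 and gs1_B4 called higher and gs2_B4 and gs1_B11 called lower. Kyat3, the nearest tested gene beyond Gbp2, was called higher in gs1B8 (0.87, adjusted p = 5e-05) and gs1_B4 (1.15, adjusted p = 5.1e-07) and lower in gs1_C8 (-0.42, adjusted p = 0.021). Farther out beyond Pdlim5, Rap1gds1 was called lower in gs2_B4, gs1_B11, gs1_B4 and gs1_C8 (-0.33 in gs1_C8, adjusted p = 2.5e-05). Tspan5 was called lower in gs1_B4 (-0.42, adjusted p = 0.0019) and gs1_C8 (-0.37, adjusted p = 0.0055) and higher in gs1B8 (0.28, adjusted p = 0.036). In gs1_C8 the 4 fitted members of the cluster had log2 fold changes of 3.67 to 4.97, and none of these neighbours was called higher. The cause was not tested.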

How the data were processed

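The authors deposited 1 table of RSEM expected counts per gene (estimated counts, not scaled between libraries). Per the submitters' processing notes, Trimmomatic 0.35 and RSEM were used with GRCm38 (mm10), and the aligner is not given in the sources used here. Of the deposited values 91.51% were whole, and they were rounded to whole counts. CPM used TMM-scaled totals over all 27 libraries. With edgeR 4.0.16 (R 4.3.3, limma 3.58.1), the 21 knockout-arm libraries and the 6 drug-arm libraries were filtered (filterByExpr, minimum count 10) and fitted separately, each clone against parental cells and Leflu against DMSO, by two-sided quasi-likelihood tests with Benjamini-Hochberg adjustment over 13940 and 12603 genes. Since separate cultures are not stated, p-values reflect variation among the libraries alone, and that may be technical. Library totals of 18492020 to 31295937 counts limit genes with few counts.

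The members and the gene lists were chosen with earlier results of these data known. Named list genes were, per list and comparison, up to 3 called genes of the largest change at 1 CPM or more, with a fixed set of receptors, JAKs, STATs and IRFs. Psme1, Map1lc3b, Fnta and Casp4, and a gene's values in further clones, were added after their values were seen, as were summed pairs, cluster neighbours, shared 50-base stretches, levels per kilobase and the filter without the compared clone or Leflu. Likeness used log2(CPM + 1) of genes with at least 1 CPM. The test was checked on simulated counts. Alternatives were DESeq2 1.42.0, its size factors, no filter, other sets of libraries in the fit, a replicate block, ribosomal RNA genes left out, and each library left out. Python 3.11.15 was used for sequences and plots. Some genes of the lists are not reported here by name.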

Additional observations from a re-analysis of the deposited data

How the results depend on the processing

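No fold change of a member turned its direction where it was called. The number of members called in gs1_B11 was the least firm: 2 were lower without the low-count filter, and 1 was higher with all 27 libraries in 1 fit. With single libraries left out, the number there was 1 to 2 higher and 0 to 2 lower. In Leflu 1 member was called higher with all 27 libraries in 1 fit. DESeq2 and its size factors kept all 14 counts of called members within 1.5 times. Libraries of the same run of serial numbers had deviations with a median r of 0.0986 in the knockout arm (lowest -0.116) and 0.224 in the drug arm (lowest 0.00344). Between libraries of different runs the median r was -0.0424 and -0.0968 in the same order. Since the lowest values within a run lay near or below 0, the numbers were not taken as pairs. In the knockout arm 19 of 21 libraries correlated best with their own run, a hint from the data and not the design. With that run as a replicate block 3 members were higher in gs2_F6, 2 higher and 1 lower in gs1_B11, and 0 in Leflu, and 11 of the counts of list genes moved by more than 1.5 times. Dropping the low-count filter moved 20 of these counts. Antiviral genes called lower in gs1_B11 were then 16. The causes were not tested. Members with under 30 counts per library, Iigp1 and Gbp5 outside gs1_C8 among them, cannot show small differences at this depth.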
